A study of Mus musculus with 19 samples.

Results

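Acute phase genes encode proteins that the liver and inflamed tissue make in larger amounts during injury or infection, and 7 of them were followed here across dorsal root ganglia: Saa1, Saa2, Saa3, Hp, Lrg1, Steap4 and Cp. They were taken by gene name from the deposited gene table, which gives counts and FPKM (a level divided by gene length and by sequencing depth), and in which each of the 7 had 1 entry among 36682 genes. The set was chosen by measured values: it was put together with the difference between AP20187 and vehicle in these ganglia already known. Levels under AP20187 and vehicle are therefore given as a description, with no p-value and no count of genes past a threshold.

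The ganglia hold the cell bodies of sensory neurons and came from 19 male mice homozygous for the MaFIA transgene (macrophage Fas-induced apoptosis). In this strain the Csf1r promoter drives a dimerizable death receptor in macrophages and in other myeloid cells that use that promoter, and the dimerizer AP20187 triggers it. All 4 groups carried the transgene: DMM mice, operated 8 weeks earlier by destabilization of the medial meniscus (a model of knee osteoarthritis), given AP20187 (n = 5) or vehicle (n = 5), and unoperated, age-matched naive mice given AP20187 (n = 4) or vehicle (n = 5). Injections were intraperitoneal, 1 a day for 5 days, and ganglia L3 to L5 of 1 side were pooled before stranded poly(A) libraries were made. The age in weeks and the dose are not given in the sources used here. Each mouse is named below by its group and number.

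In the classical scheme, interleukin 6, interleukin 1 and tumour necrosis factor act on receptors that switch on STAT3, C/EBP and NF-kB factors, and these bind the promoters of acute phase genes. Serum amyloid A proteins (Saa1, Saa2, Saa3) are small apolipoproteins, and Saa3 is the one known in mice for expression outside the liver, in macrophages and fat. Haptoglobin (Hp) binds free haemoglobin, Lrg1 is a secreted leucine-rich glycoprotein that modifies TGF-beta signalling in endothelium, Steap4 is a membrane reductase of iron and copper, and ceruloplasmin (Cp) is a copper-carrying ferroxidase. Neutrophils are known to store haptoglobin and Lrg1 in their granules.

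Libraries held 60984830 to 74691396 counts, and all 10 markers of sensory neurons were found. Their sum was 1108 to 4952 CPM (counts scaled to a common library total) in DMM and 1612 to 8072 CPM in naive mice given AP20187, against 3498 to 9956 and 6005 to 11180 CPM with vehicle. At an adjusted p under 0.05 by edgeR, 6 of the 10 were lower with AP20187 in DMM and 0 in naive mice. In naive mice 1 was lower at an unadjusted p under 0.05 by edgeR, 4 by DESeq2 and 8 by limma on log2(FPKM + 1). DESeq2 and limma each called 1 lower there, and the median log2 fold change by edgeR was -0.91. Markers of some blood and marrow cells were higher with AP20187. The sum of 14 neutrophil markers was 16180 to 27770 CPM in DMM and 7467 to 26060 CPM in naive mice given AP20187, against 432 to 8457 and 939 to 2496 CPM with vehicle. The sum of 7 monocyte markers was 3039 to 8301 and 1460 to 4601 CPM with AP20187, against 98.2 to 1158 and 166 to 485 CPM with vehicle. Of these 7, edgeR called 4 higher in DMM and 5 in naive mice, and Ccr2 lower in both. The sum of 6 erythroid markers was 867 to 3578 and 1335 to 2664 CPM against 1051 to 17720 and 2196 to 8973 CPM, with Hbb-bs and Hba-a1 called lower in DMM mice. Of 7 markers of airway and skin epithelium, 5 were called higher and Cdh1 lower in DMM mice and 1 higher in naive mice, while their sum was 43.4 to 132 and 74.7 to 177 CPM against 77.5 to 223 and 140 to 244 CPM. Of the neutrophil, monocyte and erythroid lists no marker was at 0 throughout a group, of the epithelial list Sftpc, Scgb3a1 and Krt14 were at 0 in all DMM vehicle mice and Krt5 in all naive AP20187 mice, and the part of these cells in the results below was not tested. In bulk tissue, fewer cells of a type and less RNA per cell cannot be told apart. DMM vehicle 64 stood apart from its group, with the highest values of Saa1, Saa3, Hp, Lrg1, Steap4 and Cp among the 5 mice, and values without it are given where they matter.

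The 3 serum amyloid A genes lie close together on chromosome 7 (GRCm39, positions of the deposited table): Saa3 (ENSMUSG00000040026) at chr7:46361422-46365124 on the minus strand, Saa1 (ENSMUSG00000074115) at chr7:46389921-46392404 on the minus strand and Saa2 (ENSMUSG00000057465) at chr7:46401214-46403737 on the plus strand. Saa1 and Saa2 are near copies. Their spliced GENCODE transcripts of 609 and 652 bases were identical over 87.3% of aligned columns, and 9.11% of the 50-base windows of Saa1 also occurred in Saa2. Saa3, with a spliced transcript of 555 bases, was identical to Saa1 over 62.2% of aligned columns and shared 1.61% of the windows, and it shared no window with Saa2. Counts of Saa1 and Saa2 could thus be split between the pair by the counting, which the sources used here do not describe. Saa4, the fourth member of the family, had 0 counts in every library.

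The promoters show the same relation, and the 250 bases before the start of each gene are printed for this reason (RefSeq, build GRCm38.p6, 5′ to 3′ on the strand of the gene; matches to the letters TTNNGCAA, bound by C/EBP factors, in capitals). They span chr7:46742981-46743230 for Saa1, chr7:46751583-46751832 for Saa2 and chr7:46715677-46715926 for Saa3.
Saa1: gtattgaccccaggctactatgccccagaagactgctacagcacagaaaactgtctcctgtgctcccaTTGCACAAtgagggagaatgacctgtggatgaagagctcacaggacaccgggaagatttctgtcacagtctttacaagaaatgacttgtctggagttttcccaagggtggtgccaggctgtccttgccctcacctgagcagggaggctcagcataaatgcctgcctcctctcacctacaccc
Saa2: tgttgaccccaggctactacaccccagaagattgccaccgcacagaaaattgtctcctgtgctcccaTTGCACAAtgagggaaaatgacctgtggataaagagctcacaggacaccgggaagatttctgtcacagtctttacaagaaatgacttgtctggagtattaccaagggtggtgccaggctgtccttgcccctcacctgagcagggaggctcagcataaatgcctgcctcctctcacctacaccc
Saa3: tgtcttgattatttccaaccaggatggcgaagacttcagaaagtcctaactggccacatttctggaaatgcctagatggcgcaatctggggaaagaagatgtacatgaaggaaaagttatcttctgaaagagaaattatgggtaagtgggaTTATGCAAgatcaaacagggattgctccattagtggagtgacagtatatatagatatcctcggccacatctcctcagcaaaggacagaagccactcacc
The Saa1 and Saa2 sequences were identical over 94.8% of aligned columns and hold the same match, on the minus strand, at bases 182 to 175 and 183 to 176 before the start. Saa3 was identical to Saa1 over 48.5% and holds a different match, on the plus strand, at bases 99 to 92. The search covered both strands and also the letters TTCNNNGAA (STAT), TATAAA (the core promoter element) and the NF-kB consensus, none of which matched in these 3 windows. Of 32851 RefSeq promoter windows of this length, 9.56% hold TTNNGCAA. A match is a description of letters, not a site shown to be bound.

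Saa3 was close to undetected with vehicle and present in every mouse with AP20187. In naive mice given AP20187 it was at 14.6, 19.5, 10.7 and 6.55 CPM in mice 1, 3, 4 and 5. With vehicle, naive mouse 3 had 4 counts (0.0533 CPM) and naive mice 1, 2, 4 and 5 had 0. The groups did not overlap, and the mean of 12.9 ± 5.53 CPM (SD, n = 4) was at least 289-fold higher than the level that 3 counts per library would give, 0.0445 CPM. Such a limit reflects counting error alone, because sequenced reads carried no molecular identifiers and may come from the same molecule.

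In DMM mice given AP20187, Saa3 was at 11.4, 9.26, 10.1, 6.25 and 7.13 CPM in mice 58 to 62. With vehicle it was at 0.401, 0.119 and 0.971 CPM in mice 32, 33 and 64, and mice 34 and 63 had 0 counts. These groups did not overlap either, at 8.81 ± 2.10 against 0.298 ± 0.410 CPM (SD, n = 5 each). The fitted log2 fold change was 4.87 (SE 0.87), and 6.07 without DMM vehicle 64.

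Saa1 had counts in every mouse given AP20187. It was at 7.38, 10.9, 6.39 and 3.45 CPM in naive AP20187 mice 1, 3, 4 and 5, and at 0.519, 0, 0.280, 0.129 and 0.0535 CPM in naive vehicle mice 1 to 5, with no overlap. In DMM mice 58 to 62 with AP20187 it was at 5.50, 5.03, 6.23, 1.45 and 0.442 CPM. With vehicle, DMM mice 32, 33, 34, 63 and 64 had 0.247, 0, 0.182, 0.136 and 1.60 CPM, so that DMM vehicle 64 lay above DMM AP20187 61 and 62. The log2 fold change was 5.15 (SE 1.11) in naive mice, or 5.89 without naive vehicle 1. In DMM mice it was 3.10 (SE 0.99), or 4.71 without DMM vehicle 64.

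Saa2 also had counts in every mouse given AP20187. Naive AP20187 mice 1, 3, 4 and 5 were at 3.58, 2.96, 1.55 and 0.972 CPM, and naive vehicle mice ranged from 0 to 0.362 CPM. DMM AP20187 mice 58 to 62 were at 2.46, 1.55, 2.52, 0.255 and 1.27 CPM, against 0.179 and 0.0757 CPM in DMM vehicle 33 and 34 and 0 counts in DMM vehicle 32, 63 and 64. Neither pair of groups overlapped. The log2 fold change was 3.96 (SE 1.02) in naive mice, or 4.62 without naive vehicle 1, and 4.93 (SE 1.07) in DMM mice. Without DMM vehicle 33 or 34 the other vehicle mice averaged no more than 3 counts, and the AP20187 mean was at least 35.6-fold or 35.7-fold higher than 3 counts per library.

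**Figure D1:**
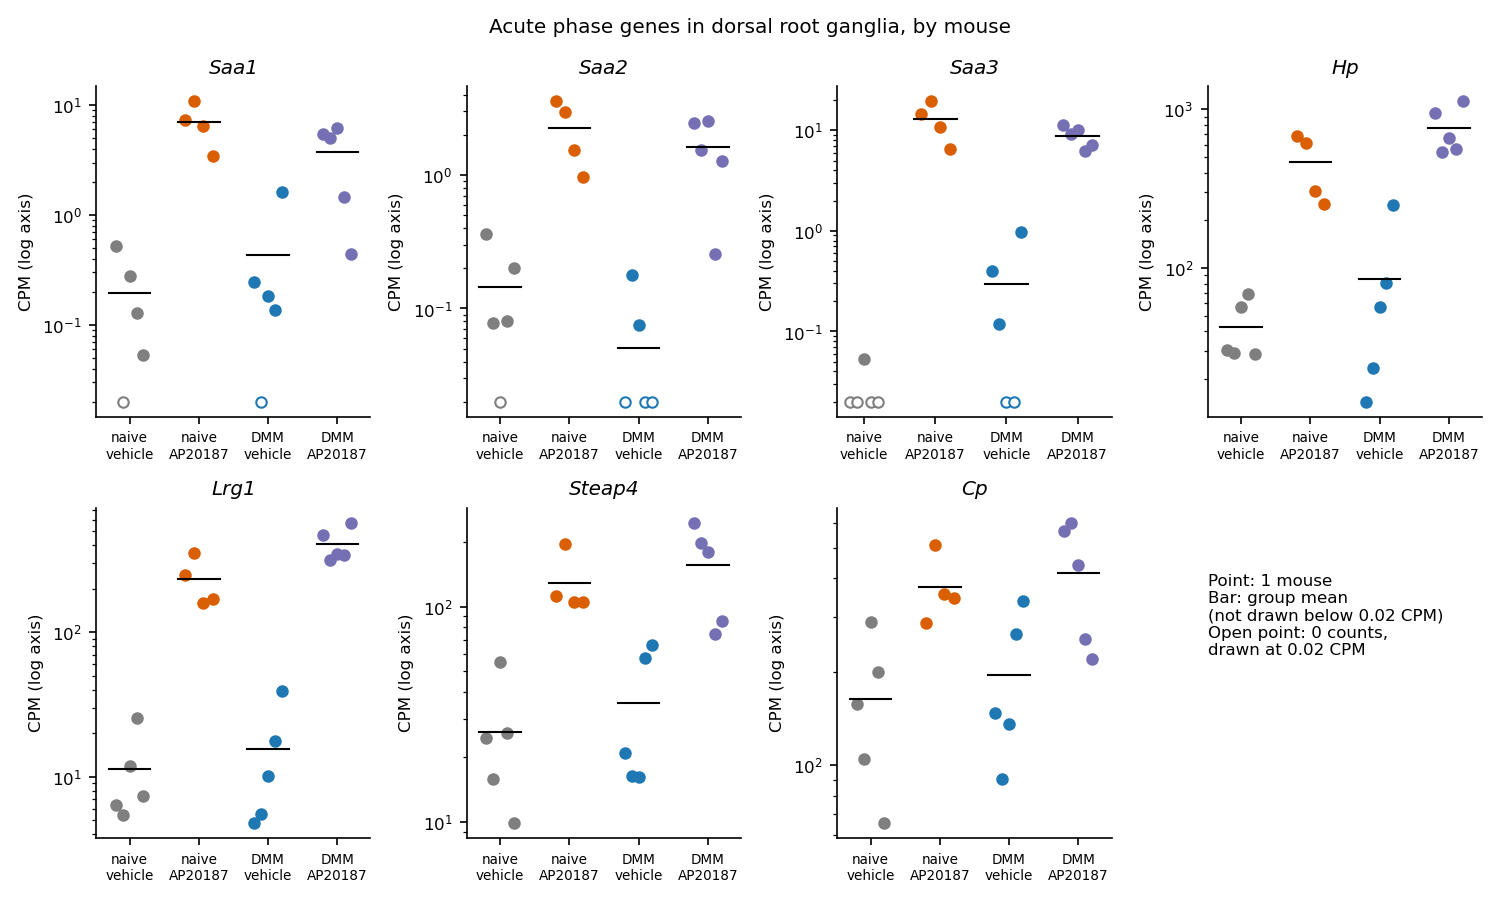
Level of each of the 7 genes in each mouse, in CPM on a log axis, by group; a filled point is 1 mouse, an open point a mouse with 0 counts drawn at 0.02 CPM, and the bar is the group mean, left out where it falls below 0.02 CPM. With AP20187 every mouse has Saa3 at 6.25 CPM or more and Lrg1 at 159.8 CPM or more, while with vehicle the highest values are 0.971 and 39.4 CPM.

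The share of Saa3 among the 3 transcripts was steady in 7 of the 9 mice given AP20187, while that of Saa2 ran from 8.28% to 13.99% among these 7. Saa3 made up 57.2% to 59.7% of all Saa1, Saa2 and Saa3 counts in the 4 naive mice and 53.5% to 58.8% in DMM mice 58 to 60. In DMM mice 61 and 62 its share was 78.5% and 80.6%. Mouse 62 had the lowest share of Saa1, 4.99%, and mouse 61 the lowest share of Saa2, 3.20%. With vehicle the 3 genes together had 5 to 175 counts in a library, too few for a comparison of shares.

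**Figure D2:**
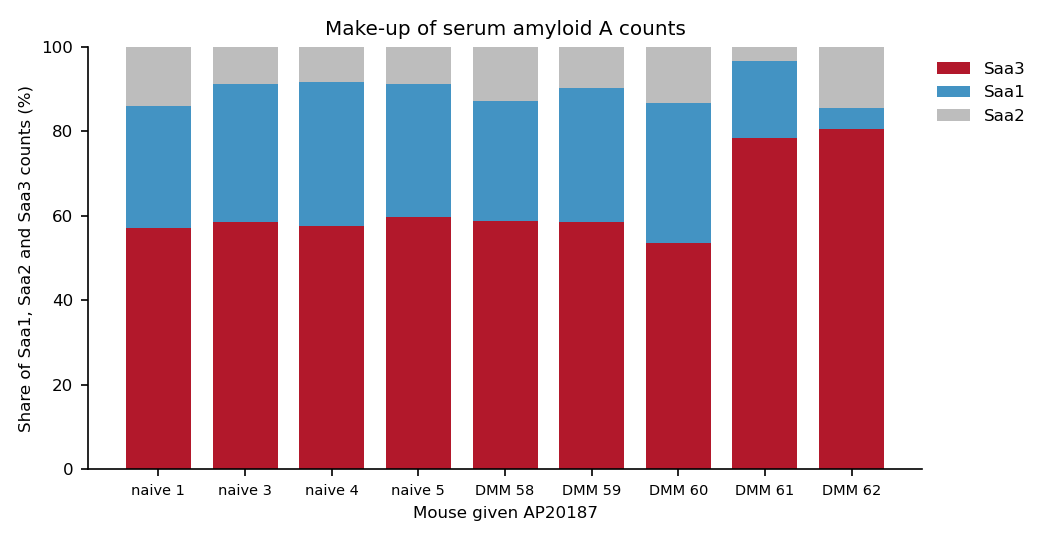
Share of Saa3, Saa1 and Saa2 in their summed counts, in percent, in each of the 9 mice given AP20187. The Saa3 share lies between 53.5% and 59.7% in 7 mice and at 78.5% and 80.6% in DMM mice 61 and 62.

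Hp (ENSMUSG00000031722, chr8:110301760-110305804, minus strand, GRCm39) had the highest deposited FPKM of the 7 genes in every group mean. Not divided by length, Cp had the higher mean with vehicle, at 163 against 42.8 CPM in naive and 195 against 85.4 CPM in DMM mice. Hp was at 949.5, 539, 665, 562.5 and 1129 CPM in DMM AP20187 mice 58 to 62 and at 14.4, 23.6, 56.9, 80.6 and 252 CPM in DMM vehicle mice 32, 33, 34, 63 and 64. The 5 vehicle values spread over more than a factor of 10, and mouse 64 was high among them, yet all lay below the AP20187 mice. Naive mice showed 679.6, 618, 305 and 254 CPM with AP20187 and 28.6 to 68.4 CPM with vehicle. The log2 fold change was 3.17 (SE 0.61) in DMM mice, 4.13 without DMM vehicle 64, and 3.44 (SE 0.63) in naive mice.

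Lrg1 (ENSMUSG00000037095, chr17:56426678-56429001, minus strand, GRCm39) was at 468, 318, 346, 341 and 574 CPM in DMM AP20187 mice 58 to 62. DMM vehicle mice 32, 33, 34, 63 and 64 had 4.75, 5.52, 10.03, 17.7 and 39.4 CPM. Naive AP20187 mice 1, 3, 4 and 5 had 251, 354, 159.8 and 171 CPM, and naive vehicle mice 5.38 to 25.6 CPM. No vehicle mouse came near an AP20187 mouse. The log2 fold change was 4.73 (SE 0.59) in DMM mice, or 5.43 without DMM vehicle 64, and 4.37 (SE 0.59) in naive mice. A gene on the opposite strand, ENSMUSG00000121227, overlaps Lrg1 and had 11 to 1585 counts, and since the counting is not described, reads of the 2 genes cannot be told apart with certainty.

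Steap4 (ENSMUSG00000012428, chr5:8010457-8032213, plus strand, GRCm39) differed less between treatments and fell into sub-ranges within groups. DMM AP20187 mice 58, 59 and 60 had 246, 198 and 179 CPM, and mice 61 and 62 had 74.98 and 85.7 CPM. DMM vehicle mice 32, 33 and 34 had 20.9, 16.4 and 16.1 CPM, and mice 63 and 64 had 57.9 and 66.1 CPM. Naive mice were at 112, 194 (mouse 3), 105 and 105 CPM with AP20187 and at 9.85 to 55.1 CPM with vehicle. The groups did not overlap, with a log2 fold change of 2.14 (SE 0.50) in DMM and 2.30 (SE 0.52) in naive mice. Against DMM vehicle 63 and 64 alone the log2 fold change in DMM mice was 1.38 (SE 0.59).

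The promoter of Steap4 is printed because, of the 6 genes with a RefSeq promoter entry, it held the most matches to the 4 motifs searched (chr5:7960222-7960471, plus strand, build GRCm38.p6, matches in capitals).
Steap4: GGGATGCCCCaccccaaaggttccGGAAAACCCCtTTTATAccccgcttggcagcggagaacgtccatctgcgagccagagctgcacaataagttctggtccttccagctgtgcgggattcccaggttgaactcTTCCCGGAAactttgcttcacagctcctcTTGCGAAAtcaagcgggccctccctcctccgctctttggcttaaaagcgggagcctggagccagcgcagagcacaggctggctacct
From the first base on, the capitals mark 2 NF-kB consensus matches, a TATAAA match on the minus strand, TTCCCGGAA for TTCNNNGAA at bases 116 to 108 before the start, and TTGCGAAA for TTNNGCAA on the minus strand at bases 87 to 80. None of them overlap. Of the 32851 windows, 7.25% hold the NF-kB consensus, 7.02% TTCNNNGAA and 12.4% TATAAA. The Lrg1 window held no match, and the window of the second RefSeq start of Cp held TTTTGCAA and a TATAAA match on each strand, which overlap each other.

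Cp (ENSMUSG00000003617, chr3:20011218-20061773, plus strand, GRCm39) had the smallest difference of the 7. DMM AP20187 mice 58 to 62 were at 564, 602, 439, 254 and 219.9 CPM and DMM vehicle mice 32, 33, 34, 63 and 64 at 147, 90.6, 136, 264 and 336 CPM, so the groups overlapped. Naive mice were at 287 to 511 CPM with AP20187 and 65.2 to 289 CPM with vehicle, where naive vehicle 3 passed the lowest AP20187 mouse. The log2 fold change was 1.10 (SE 0.40) in DMM and 1.20 (SE 0.42) in naive mice. Against DMM vehicle 63 and 64 alone it was 0.51 (SE 0.49), and against DMM vehicle 32 to 34 alone 1.74 (SE 0.44). Cp overlaps Hps3 on the opposite strand, which had 2424 to 6491 counts.

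Every AP20187 mouse lay above every vehicle mouse for 5 of the 7 genes in DMM mice (all but Saa1 and Cp) and for 6 in naive mice (all but Cp), against 8.71% and 9.39% of 22778 tested genes. The genes were chosen on this difference, so nothing is read from these counts. The median log2 fold change of the 7 was 3.17 in DMM and 3.96 in naive mice, beside -0.10 and -0.07 over all tested genes, and it was the same with Saa3 in naive mice set to its lower bound. All 7 passed the filter on low counts, and Saa2 and Saa3 did so through the AP20187 groups.

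Per length, the order of the genes differed between the treatments. In naive vehicle mice the deposited FPKM was highest for Hp (26.1 ± 11.7, SD, n = 5), then Cp (16.8 ± 9.22), Steap4 (8.20 ± 5.60) and Lrg1 (7.87 ± 5.84), with Saa1 (0.0752), Saa2 (0.0513) and Saa3 (0.00408) far below. Neighbours in this order overlapped in range, except that every mouse had more Lrg1 than Saa1. With AP20187, Lrg1 moved to the place after Hp: naive mice had 244 ± 102 FPKM of Hp, 141 ± 48.6 of Lrg1, 35.0 ± 10.7 of Steap4, 33.6 ± 8.08 of Cp, 4.17 ± 1.63 of Saa3, 2.40 ± 0.962 of Saa1 and 0.752 ± 0.373 of Saa2 (SD, n = 4). There the ranges of Lrg1 and Steap4, of Cp and Saa3, and of Saa1 and Saa2 did not overlap, and the other neighbours did.

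DMM mice given AP20187 had the same order of means, from Hp at 462 ± 140 FPKM and Lrg1 at 281 ± 62.8 to Saa3 at 3.32 ± 0.953, Saa1 at 1.50 ± 1.07 and Saa2 at 0.625 ± 0.389 (SD, n = 5). DMM mice given vehicle had Hp at 54.8 ± 64.2, Cp at 20.5 ± 11.4, Steap4 at 11.3 ± 8.12, Lrg1 at 11.2 ± 10.9, Saa1 at 0.181 ± 0.284, Saa3 at 0.116 ± 0.165 and Saa2 at 0.0184 ± 0.0294 FPKM. Counts and FPKM together imply lengths of 2579 to 2706 bases for the Saa genes, although the spliced transcripts have 555 to 652 bases. How the FPKM were scaled is not described in the sources used here, so implied lengths are approximate. By them, the level of the Saa genes per length of spliced transcript is understated beside Hp (1657 bases) and Lrg1 (1453 bases). The implied length of Cp is 9877 bases, the longest of the 7, and its place in the order depends on that length.

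Surgery alone was compared in mice given vehicle. None of the 7 genes passed the edgeR test, in a comparison in which 0.0% of 22778 genes did. At an unadjusted p under 0.05 there was 1 of the 7 by edgeR and DESeq2 alike, and none by limma on log2(FPKM + 1). Over all genes there were 377 by edgeR and 521 by DESeq2, neither of which called a gene. The 1 gene was Saa3, which passed the filter on low counts through the AP20187 groups, so nothing is read from its p. Saa3 had 26, 8 and 66 counts in DMM vehicle 32, 33 and 64 and 0 in 34 and 63, beside the 4 counts in 1 of 5 naive mice. The DMM mean was at least 6.71-fold the level of 3 counts per library in the naive mice, or at least 2.92-fold without DMM vehicle 64, and the groups overlapped at 0.

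Among the other genes the log2 fold change of DMM against naive with vehicle was 1.14 (SE 0.99) for Saa1, -1.46 (SE 1.02) for Saa2, 1.00 (SE 0.56) for Hp, 0.45 (SE 0.51) for Lrg1, 0.44 (SE 0.48) for Steap4 and 0.25 (SE 0.40) for Cp. All groups overlapped, in a comparison in which every DMM mouse lay above every naive mouse for 0.127% of tested genes and below for 0.11%. Without DMM vehicle 64 those of Saa1, Lrg1 and Cp were -0.47, -0.25 and -0.03 and that of Hp was 0.04. Saa2 was at -0.79 without naive vehicle 1, and without DMM vehicle 33 the naive mean was at least 3.18-fold higher than 3 counts per library in the other DMM mice. With only DMM vehicle 32 to 34 in that group, Saa1, Hp, Lrg1, Steap4 and Cp were all below the naive mice (-0.46, -0.43, -0.74, -0.56 and -0.39), and no gene of the 7 passed. With only DMM vehicle 63 and 64, Hp passed (2.02, SE 0.46, adjusted p = 0.0485), as did 541 genes in all. Saa3 was called too, but on mouse 64 alone (66 counts), since mouse 63 had 0. The 2 mice had the 2 highest levels of Hp, Lrg1, Steap4 and Cp in their group.

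With AP20187 in both groups, none of the 7 genes was called between DMM and naive mice, where 0.702% of tested genes were called. These AP20187 mice also entered the differences on which the genes were chosen, so nothing is read from the tests of the 7. None of the 7 had an unadjusted p under 0.05 by edgeR or DESeq2, beside 3795 and 4388 of all 22778 genes, and 1 did by limma on log2(FPKM + 1), beside 4868 of 23701. Point estimates ran from -0.91 (SE 0.95) for Saa1, -0.54 (SE 0.76) for Saa3 and -0.49 (SE 0.92) for Saa2 through 0.15 (SE 0.42) for Cp and 0.28 (SE 0.51) for Steap4 to 0.73 (SE 0.60) for Hp and 0.81 (SE 0.55) for Lrg1, with adjusted p of 0.465 to 0.893. The 3 Saa genes had the higher mean in naive mice and the other 4 in DMM mice, all with overlapping groups (over all tested genes, DMM mice lay wholly above for 3.46% and wholly below for 2.44%).

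The interaction, which is the AP20187 difference in DMM mice minus that in naive mice, passed for none of the 7 genes by edgeR, with 0.114% of tested genes called. By edgeR and by DESeq2, 1 gene had an unadjusted p under 0.05, as did 1748 and 2075 of all 22778 genes, and none did by limma on log2(FPKM + 1), where 2224 of 23701 genes did. The interaction is made of the AP20187 differences on which the genes were chosen, so nothing is read from these calls. By edgeR the 1 gene was Saa3, which passed the filter through the AP20187 groups. No fitted value is given for Saa3 because its naive vehicle group had 4 counts in all. Its AP20187 mean was 29.5 times the vehicle mean in DMM mice and at least 289-fold higher in naive mice. Those of Saa1 and Saa2 were -2.05 (SE 1.37) and 0.97 (SE 1.35). Hp, Lrg1, Steap4 and Cp had values from -0.27 to 0.35. Saa1 moved to -0.44, Hp to 0.69 and Lrg1 to 1.06 without DMM vehicle 64, Saa1 to -2.79 and Saa2 to 0.30 without naive vehicle 1. Without DMM vehicle 33 the interaction of Saa2 was farther above 0, by a fitted value that is not given because the other DMM vehicle mice had 5 counts in all.

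Variation between mice of the same group was then used to ask which of the genes went up and down together, a measure that does not use the differences between groups. Each log2 CPM (prior count 2) was taken as its deviation from the group mean, and 42 relations over the 19 mice were tested by 100000 permutations within groups, with Benjamini-Hochberg adjustment. Hp and Lrg1 formed one pair (r = 0.936, rho = 0.921, permutation adjusted p = 5.25e-05 and 0.00021), and Steap4 and Cp the other (r = 0.957, rho = 0.956, permutation adjusted p = 5.25e-05 and 0.00012). Here 5.25e-05 is the adjusted value of 1e-05, the smallest p that the permutations can give. Without the 2 mice farthest from the median r was 0.898 and 0.935. Between the pairs, Hp with Cp had r = 0.526 (rho = 0.472, permutation adjusted p = 0.0801 and 0.113), with -0.12 over the 9 mice given AP20187 and 0.724 over the 10 given vehicle.

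The pairs were then set against sums of cell markers. Hp followed the sum of the 14 neutrophil markers (r = 0.987, rho = 0.949, permutation adjusted p = 5.25e-05 and 0.000105), and so did Lrg1 (r = 0.925, rho = 0.956, permutation adjusted p = 5.25e-05 and 0.000105). Within the 9 AP20187 mice these r were 0.942 and 0.845, and within the 10 vehicle mice 0.996 and 0.941. Without the 2 farthest mice they were 0.971 and 0.906. Neither gene was in the marker list. Other sums gave high r as well, here as a description over the 19 mice without a test: 0.978 and 0.932 for Hp and Lrg1 with the monocyte sum, 0.882 for both with the erythroid sum and 0.824 and 0.845 with the fat cell sum.

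Steap4 and Cp followed the sum of 8 fibroblast and perineurial markers, with r = 0.974 and 0.982 (rho = 0.967 and 0.975, permutation adjusted p = 5.25e-05 for both r, 0.00012 and 0.000105 for rho), and the sum of 10 macrophage markers, with r = 0.955 and 0.959 (rho = 0.949 and 0.970, with the same adjusted p). Within AP20187 mice the r with the fibroblast sum were 0.965 and 0.980, within vehicle mice 0.980 and 0.984, and without the 2 farthest mice 0.964 and 0.983. With the sum of 6 satellite glia markers their r were 0.857 and 0.803, not tested. With the neutrophil sum their r were 0.585 and 0.547 (rho = 0.584 and 0.544, permutation adjusted p = 0.0762 for both r, 0.07 and 0.0754 for rho). The fibroblast sum was 1731 to 6149 CPM in DMM and 2934 to 5709 CPM in naive mice given AP20187, against 1242 to 6611 and 886 to 4210 CPM with vehicle, so that those groups overlapped. That of the macrophage markers was 247 to 1044 and 478 to 807 CPM with AP20187 against 171 to 648 and 92.1 to 507 CPM. No marker of either list was at 0 throughout a group, and their part in the differences between treatments was not tested.

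The Saa genes joined these pairs only in part. Saa1 followed Cp (r = 0.760, rho = 0.749, permutation adjusted p = 0.00538 and 0.00836), Steap4 (r = 0.695, rho = 0.712, permutation adjusted p = 0.0178 and 0.0136) the fibroblast sum (r = 0.782, rho = 0.747, permutation adjusted p = 0.00415 and 0.00836) and the macrophage sum (r = 0.774, rho = 0.768, permutation adjusted p = 0.00487 and 0.00836). Without the 2 farthest mice these r were 0.662, 0.600, 0.684 and 0.726. Saa2 and Saa3 passed the filter on low counts through the AP20187 groups and had few or no counts with vehicle. Their deviations there are largely set by the floor, so no p is given for their relations. Saa1 and Saa3 had r = 0.467 and rho = 0.594, and r was 0.358 without the 2 farthest. Saa3 with the neutrophil sum had r = 0.160 and rho = 0.191, at 0.815 over AP20187 mice and 0.0758 over vehicle mice, of which 6 of 10 had 0 counts of Saa3. The r of Saa2 with the near copy Saa1 was -0.05 (rho = 0.139). Over the 9 AP20187 mice alone the r of Saa2 were 0.564 with Saa1, 0.788 with Saa3 and 0.746 with Steap4, and over the 10 vehicle mice, with 0 to 23 counts of Saa2, they were -0.364, -0.382 and -0.70, none of them tested.

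**Figure D3:**
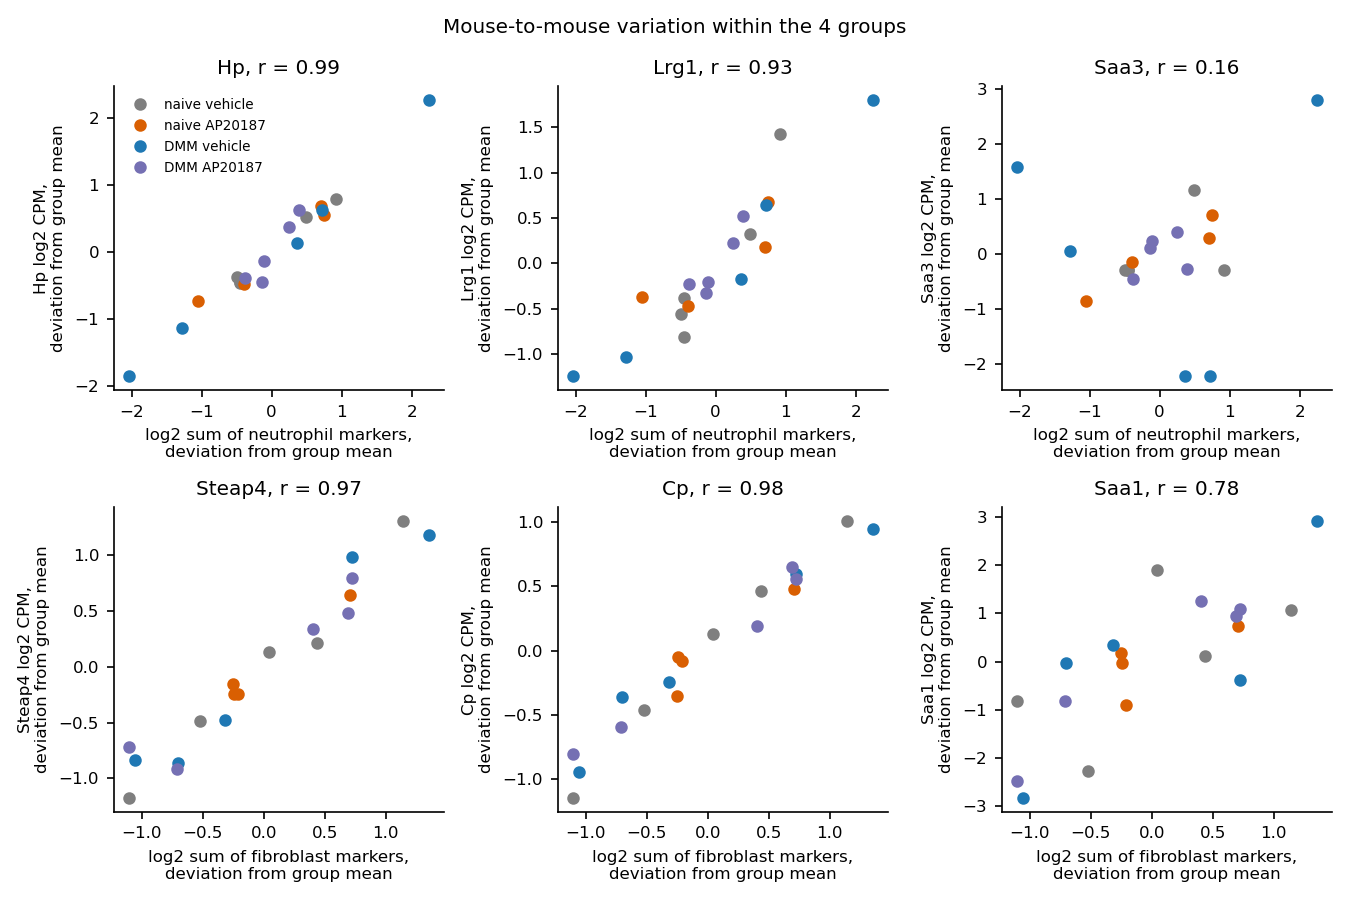
Deviation of each mouse from its group mean (log2), for 6 genes on the y axes against the log2 sum of neutrophil markers (upper row) or of fibroblast and perineurial markers (lower row) on the x axes; a point is 1 mouse, coloured by group. Hp (r = 0.99) and Lrg1 (r = 0.93) lie along a line with the neutrophil sum and Steap4 (r = 0.97) and Cp (r = 0.98) with the fibroblast sum, while Saa3 (r = 0.16) is scattered.

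Hepatocytes are the main source of many acute phase proteins in blood. The sum of 12 hepatocyte markers was 11.8 to 26.3 CPM in DMM mice given AP20187 and 11.6 to 27.9 CPM with vehicle, and 6.15 to 9.96 and 7.43 to 18.6 CPM in naive mice. Alb, Fgb and Tat had 0 counts in every naive mouse given AP20187, and no marker was at 0 throughout another group. Ttr had counts in every mouse, at 1.47 to 4.20 CPM in naive mice given AP20187 and 4.90 to 10.8 CPM in the other groups, and Alb averaged 5.35 CPM in DMM mice given AP20187 and 1.66 CPM with vehicle. The part of these cells was not tested. Fat cells, a known site of Saa3, had a summed level of 9 markers of 18.9 to 41.9 CPM in DMM and 24.2 to 39.8 CPM in naive mice with AP20187, and of 5.89 to 51.7 and 5.57 to 33.2 CPM with vehicle. No fat cell marker was at 0 throughout a group, and the part of these cells was not tested.

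Counts of other genes are read against all 22778 tested genes: at an adjusted p under 0.05, AP20187 had 11.3% of them called higher and 12.4% lower in DMM mice (23.8% in either direction), and 8.61% higher and 2.57% lower in naive mice (11.2% in either direction). The cytokines that induce acute phase genes were mostly below the threshold. Of 11 tested ligands, 2 were called higher with AP20187 in DMM mice (Tnf and Osm) and 3 in naive mice (Tnf, Il1a and Osm), and none lower by edgeR. Of those below their controls, 2 had an unadjusted p under 0.05 in DMM and 0 in naive mice, and DESeq2 called 1 lower in DMM and 0 in naive mice. Their median log2 fold change was -0.16 in DMM and 1.22 in naive mice, beside -0.10 and -0.07 over all genes. Tnf, the tumour necrosis factor, rose from 0.880 ± 0.794 to 8.62 ± 2.58 CPM (SD, n = 5 each) in DMM mice, or by 3.29 on the log2 scale (SE 0.55, adjusted p = 0.000753, above the vehicle mean in 5 of 5 mice), or 3.93 without DMM vehicle 64. In naive mice it rose by 3.67 (SE 0.57, adjusted p = 0.000906, 4 of 4 mice).

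Il6, a known inducer of acute phase genes in hepatocytes, stood at 0.802 ± 0.514 against 0.396 ± 0.152 CPM in DMM and 1.57 ± 1.05 against 0.290 ± 0.333 CPM in naive mice. It did not pass in either by edgeR (log2 1.01, adjusted p = 0.455 and log2 2.44, adjusted p = 0.109), but in naive mice it passed by DESeq2 (adjusted p = 0.0433), by limma on log2(FPKM + 1) and log2(FPKM + 0.1) (0.0333 and 0.0351) and by edgeR without naive vehicle 4 (3.35, adjusted p = 0.043). Il1b, interleukin 1 beta, had a log2 difference of -1.58 in DMM mice (SE 0.66, adjusted p = 0.0889) and 1.05 in naive mice (SE 0.68, adjusted p = 0.314). The first was -0.47 without DMM vehicle 64, which had 15.4 CPM of it, and the second 0.39 without naive AP20187 5.

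Receptors and signal transducers split by gene. Of 12 receptors, 4 were called higher in DMM and in naive mice, and 2 were called lower in DMM mice (Cntfr and Lifr), beside 11.3% of all genes higher and 12.4% lower in DMM and 8.61% higher in naive mice. The 6 lower neuron markers belong to the same DMM comparison, and their part was not tested. The median log2 fold changes were 0.86 and 0.62. Il1r1, the signalling receptor of interleukin 1, rose by 1.74 (SE 0.21, adjusted p = 6.06e-05, 5 of 5 mice) in DMM and 1.75 (SE 0.22, adjusted p = 0.00012, 4 of 4 mice) in naive mice. The interleukin 6 receptor Il6ra had differences of 1.16 (adjusted p = 0.0578) and 0.77 (adjusted p = 0.262), and its signalling chain Il6st of -0.32 (adjusted p = 0.405) and -0.01 (adjusted p = 0.991). In DMM mice Il6ra passed when any 1 of 5 mice was left out, namely DMM AP20187 61, DMM vehicle 64 (1.60, adjusted p = 0.00779), naive AP20187 3 or 5 or naive vehicle 5.

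Of 22 tested signal transducers, 10 were called higher in DMM and 8 in naive mice and none lower by edgeR, where 0 lower transducers had an unadjusted p under 0.05 and DESeq2 called 0 lower, with median log2 fold changes of 0.74 and 0.85. Socs3, a feedback inhibitor that STAT3 switches on, rose by 2.48 (SE 0.27, adjusted p = 2.87e-05, 5 of 5 mice) and by 2.17 (SE 0.28, adjusted p = 0.000176, 4 of 4 mice). The transcript of Stat3 itself had differences of -0.05 (adjusted p = 0.903) and -0.30 (adjusted p = 0.411). Nfkbiz, a nuclear cofactor of NF-kB, rose by 1.73 (SE 0.26, adjusted p = 0.000314, 5 of 5 mice) and by 1.42 (SE 0.26, adjusted p = 0.00298, 4 of 4 mice).

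The C/EBP factors behind the letters printed for the Saa promoters gave mixed calls. Cebpb rose by 3.63 in naive mice (SE 0.87, adjusted p = 0.0132, 4 of 4 mice), which was 3.11 (adjusted p = 0.0538) without naive AP20187 3 and 4.29 without naive vehicle 4. In DMM mice its difference was 1.91 (SE 0.80, adjusted p = 0.0883), and 3.01 (adjusted p = 0.00909) without DMM vehicle 64. Cebpd had 1.49 (SE 0.56, adjusted p = 0.0597) in DMM mice, passing without DMM AP20187 61 (1.65, adjusted p = 0.0436) or DMM vehicle 64 (2.19, adjusted p = 0.0053), and 1.50 (SE 0.58, adjusted p = 0.1) in naive mice.

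Other acute phase genes, 28 of them tested, had 12 called higher in DMM and 12 in naive mice and none lower by edgeR, with median log2 fold changes of 1.03 and 1.59. Lower genes with an unadjusted p under 0.05 numbered 0 in DMM and 2 in naive mice, and DESeq2 called 0 lower in both. Lcn2, a neutrophil granule protein that withholds iron from bacteria, rose by 3.59 (SE 0.63, adjusted p = 0.00107, 5 of 5 mice) in DMM mice, 4.52 without DMM vehicle 64, and by 4.43 (SE 0.66, adjusted p = 0.00071, 4 of 4 mice) in naive mice. The complement protein C3 rose by 3.31 (SE 0.51, adjusted p = 0.000406, 5 of 5 mice) and 3.32 (SE 0.52, adjusted p = 0.000912, 4 of 4 mice). The metallothioneins Mt1 and Mt2, which bind zinc and copper, rose by 1.07 and 1.31 in DMM (adjusted p = 0.00853 and 0.00419, 5 of 5 mice each) and by 1.40 and 1.93 in naive mice (adjusted p = 0.00419 and 0.000881, 4 of 4 mice each).

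Itih4, a plasma protein gene of the inter-alpha-trypsin inhibitor family, had few or no counts with vehicle. It was at 4.37, 10.6, 0.992, 6.83 and 1.95 CPM in DMM AP20187 mice 58 to 62, with counts in only DMM vehicle 63 of its controls (0.363 CPM). Naive AP20187 mice had 2.18 to 8.02 CPM and were at least 110-fold higher in the mean than 3 counts per library in the vehicle group. It passed the filter on low counts through the AP20187 groups, so its calls, which are among the 12 in each comparison, are given no p. Serpina3n, an acute phase protease inhibitor, was not called, at 226 ± 46.8 against 168 ± 55.1 CPM in DMM and 257 ± 74.3 against 208 ± 49.3 CPM in naive mice (adjusted p = 0.249 and 0.465). Of the 7 tested negative acute phase genes, whose proteins fall in inflammation, none was called in DMM mice by edgeR (1 had an unadjusted p under 0.05, and DESeq2 called 1, higher), and in naive mice Trf was called higher and Ttr lower, with medians of 1.10 and -0.66.

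Genes that act on or with the 7 were read by partner. Of 9 receptors and partners of serum amyloid A, 6 were called higher in both comparisons (Ager, Tlr2, Scarb1, Tlr4, Fpr1 and Fpr2) and 1, Scarb2, lower in DMM mice, with median log2 fold changes of 1.76 and 1.47. Fpr2, a formyl peptide receptor that binds serum amyloid A, rose by 2.69 (SE 0.60, adjusted p = 0.00494, 5 of 5 mice), 3.51 without DMM vehicle 64, and by 2.66 (SE 0.62, adjusted p = 0.0111, 4 of 4 mice). The toll-like receptors Tlr2 and Tlr4 rose by 1.96 and 2.08 in DMM mice (adjusted p = 0.0093 and 0.000158, 5 of 5 mice each) and by 2.25 and 1.42 in naive mice (adjusted p = 0.00951 and 0.00523, 4 of 4 mice each); Tlr2 was at 2.61 without DMM vehicle 64. Scarb1, a receptor for high density lipoprotein, rose by 1.42 (SE 0.24, adjusted p = 0.000952, 5 of 5 mice) and 1.85 (SE 0.26, adjusted p = 0.000317, 4 of 4 mice).

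None of the 5 partners of haptoglobin was called in either comparison by edgeR. In each comparison 1 had an unadjusted p under 0.05, and DESeq2 called 1 higher in DMM and 0 in naive mice. Cd163, the macrophage receptor that takes up haptoglobin with haemoglobin, had 1.12 (SE 0.43, adjusted p = 0.0651) in DMM and 0.75 (SE 0.45, adjusted p = 0.274) in naive mice. In DMM mice it passed without DMM AP20187 61 (1.29, adjusted p = 0.0344) or 62 (1.34, adjusted p = 0.0335) or naive vehicle 3 or 5. Of 12 TGF-beta partners of Lrg1, 3 were called higher and 1 lower in DMM mice and 2 higher in naive mice, against 11.3%, 12.4% and 8.61% of all genes. Acvrl1, the endothelial receptor through which Lrg1 is known to act, rose by 2.60 (SE 0.39, adjusted p = 0.000359, 5 of 5 mice) and 2.22 (SE 0.40, adjusted p = 0.00243, 4 of 4 mice). Of 9 endothelial markers, edgeR called 4 higher in DMM and 3 in naive mice. Their sum was 275 to 624 and 357.5 to 1069 CPM with AP20187 against 140 to 245 and 120 to 615 CPM with vehicle, where the naive groups overlapped, and the part of these cells was not tested.

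Of 15 iron and copper partners of Cp and Steap4, 1 was called higher (Slc40a1) and 1 lower (Slc11a2) in DMM mice and 5 higher in naive mice (Atox1, Fth1, Slc40a1, Trf and Ftl1), against 11.3%, 12.4% and 8.61% of all genes, with medians of 0.26 and 0.29. The other members of the reductase family, Steap1, Steap2 and Steap3, were not called by edgeR with all mice. Their log2 differences were 1.05, -0.56 and 0.01 in DMM mice (adjusted p = 0.0646, 0.0779 and 0.977) and 0.58, -0.32 and 0.51 in naive mice (adjusted p = 0.364, 0.387 and 0.2). Steap1 passed without DMM AP20187 58 or 62 or naive vehicle 4, and Steap2 without DMM vehicle 64 (-0.72, adjusted p = 0.0115) and against DMM vehicle 32 to 34 alone (-0.85, adjusted p = 0.00444). Steap3 passed in naive mice with only the compared groups fitted (adjusted p = 0.0367).

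**Figure D4:**
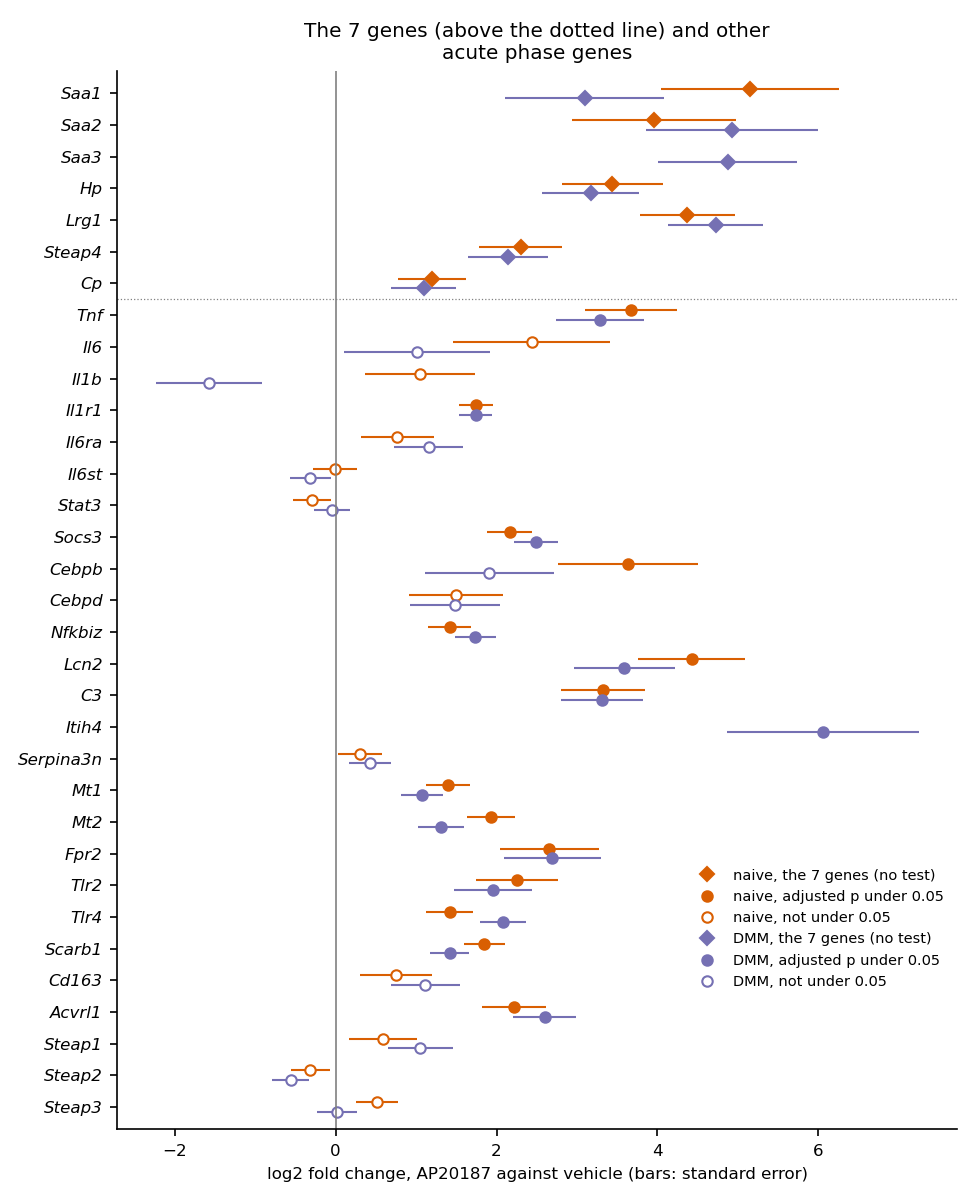
Log2 fold change of AP20187 against vehicle with its standard error, on the x axis, in naive and in DMM mice for the 7 genes (diamonds, no test) and for 26 ligands, receptors, transducers, other acute phase genes and partners (filled circles, adjusted p under 0.05; open circles, not). Saa3 and Itih4 in naive mice are not drawn, since their vehicle group was at or under 3 counts per library. Itih4 in DMM mice is drawn filled, but it passed the filter on low counts through the AP20187 groups, so nothing is read from its fill. By edgeR, Tnf, Socs3, Lcn2 and C3 are filled in both while Il6, Stat3, Il6st and Serpina3n are open in both.

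Last, the genes most like each of the 7 were looked up by Pearson r of log2 CPM over all 19 mice, among 14936 genes, as a description. Because group differences dominate this measure, many genes with a treatment difference score high. Saa3 was closest to the stefins Stfa2, Stfa1 and Stfa3 (r = 0.954, 0.948 and 0.946), inhibitors of cathepsins. After removal of the group means these were 0.541, 0.521 and 0.538. Hp was closest to Ncf1, a subunit of the phagocyte oxidase, Alox5ap and Mcemp1 (0.998, 0.997 and 0.996), which had 0.989, 0.988 and 0.991 after removal of the group means. Lrg1 was closest to Il1r2, Plscr1 and Mgam (0.991 or 0.992 each).

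Steap4 was closest to Fcgr2b, Cbr2 and Ms4a6d (0.985, 0.981 and 0.977) and Cp to C1qa, C1s1 and Ms4a7 (0.978, 0.976 and 0.974), of which C1qa is in the macrophage marker list. After removal of group means, Dcn, a proteoglycan in the fibroblast list, was at 0.976 with Steap4 and 0.977 with Cp. Saa1 was closest to Stk32b, Adh1 and Ms4a6d (0.942, 0.937 and 0.936). Saa2 had the weakest likeness, to Calr, Slc28a3 and Noct (0.877, 0.877 and 0.872), and after removal of group means no gene was above 0.668 with it.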

How the data were processed

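Stranded poly(A) RNA of 19 mice was sequenced. The authors deposited whole-number counts and FPKM per gene for 36682 genes, and a further table of counts only, used here for Saa4. The submitters' processing notes name cutadapt, HISAT2, StringTie and the build GRCm39, without versions or roles. How reads of near copies or overlapping genes were counted is not given in the sources used here. The authors' FPKM served for levels per length and for alternatives.

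The 7 genes, the gene lists and the tests were chosen with earlier results of these data known. From the counts, edgeR 4.0.16 (R 4.3.3) fitted 1 model of the 4 groups to all 19 libraries by the quasi-likelihood F test, with 15 residual degrees of freedom, TMM scaling and filterByExpr (minimum count 10), which kept 22778 genes. Adjusted p-values are Benjamini-Hochberg values over these genes, two-sided, with a threshold of 0.05, and the standard error is the log2 fold change divided by the square root of F. CPM are counts scaled to a common library total after TMM. Where a group averaged no more than 3 counts in a library, that number served as its floor. The model was also run on simulated counts with known fold changes, and the outcome is not given here. The labels name mice by number and do not describe further how they were kept, so p-values measure the spread between these mice.

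Non-member genes were named from lists of ligands, receptors, transducers, other acute phase genes and partners fixed by role, and those printed were chosen with their values in view; the nearest 3 genes by correlation were named for each of the 7. Alternatives were DESeq2 1.42.0, relative log scaling, no scaling, no filter, limma 3.58.1 on log2(FPKM + 1) and log2(FPKM + 0.1) with genes at 0.1 FPKM or more in 4 libraries or without that filter, the compared groups alone, subsets of DMM vehicle mice by number, and leaving out each mouse. Promoters came from the RefSeq table of build GRCm38.p6, which matched 6 of the 7 genes (not Hp), and were not set against GRCm39 positions. Alignments used Biopython 1.88.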

Additional observations from a re-analysis of the deposited data

Results flagged for a closer look

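Within the groups of 4 or 5 mice, 28 sets of values (7 genes in 4 groups) were examined for a single mouse far from the others by Dixon's criterion, and 4 stood out. Chance flags about 1 in 20 only where values are independent and normally distributed. These CPM come from related genes in the same mice and were not shown to be so. Saa1 was at 1.60 CPM in DMM vehicle 64, with the next mouse of the group at 0.247 CPM. Hp was at 252 CPM in the same mouse, with the next at 80.6 CPM. Saa3 was at 0.0533 CPM (4 counts) in naive vehicle 3, the only mouse of that group with any count; with 4 mice at 0, any count would stand out in this way. Steap4 was at 194 CPM in naive AP20187 3, with the next at 112 CPM.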

How the results depend on the processing

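The 7 genes were chosen on the AP20187 difference, so only its size is followed here. Leaving out 1 mouse gave log2 fold changes of 2.78 to 4.71 for Saa1 and 0.91 to 1.39 for Cp in DMM mice and of 3.63 to 4.62 for Saa2 and 1.03 to 1.51 for Cp in naive mice. Against DMM vehicle 63 and 64 alone, Saa1 was at 2.10 and Steap4 at 1.38. Of the other genes named, Mt1 (0.54), Mt2 (0.95), Fpr2 (1.75) and Tlr2 (1.11) did not pass against those 2 mice. DESeq2 also called Il1b, Il6ra, Cebpb, Cebpd, Cd163 and Steap1 in DMM mice and Il6 and Cebpd in naive mice. Limma on both FPKM scales called Il6ra and Cebpd in DMM and Il6 in naive mice. With only the compared groups fitted, Cebpd (1.54) and Steap3 (0.53) passed in naive mice, and against DMM vehicle 32 to 34 Il6ra, Cebpb, Cebpd, Cd163 and Steap2 passed, as Il1b did against 63 and 64. The cause of these differences was not tested.

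The replicate numbers 1, 3, 4 and 5 occur in both naive groups. Deviations of same-numbered mice correlated at 0.0235, 0.301, -0.0822 and 0.183, and only 1 of 4 mice, number 3, correlated best with its own number. So few correlations cannot settle whether the numbers pair the mice, and the main model does not use the numbers. With the replicate block 2352 genes were called, against 1388 without the block in the same mice. The log2 fold changes of Saa2 and Cp under the block were 4.07 and 1.24. In these mice Cebpd passed with and without the block (1.43 and 1.36), and Il6ra with it (0.73).

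Over all genes, AP20187 called 8450 genes against DMM vehicle 32 to 34 and 1156 against 63 and 64, where the main count was 5410, and leaving out 1 mouse gave 3212 to 7677. In naive mice 2548 became 4356 by DESeq2 and 3958 and 4063 by limma on log2(FPKM + 1) and log2(FPKM + 0.1), and 994 to 3452 with 1 mouse left out. DMM against naive with vehicle gave 541 genes and 2 of the 7 (Hp, and Saa3 on mouse 64 alone) with DMM vehicle 63 and 64 alone. With AP20187, 160 became 1109 by DESeq2, 73 without the filter and 1148, 908 and 1004 by limma on log2(FPKM + 1), log2(FPKM + 0.1) and log2(FPKM + 1) unfiltered, and 43 to 269 with 1 mouse left out. The interaction's 26 became 224, 13, 52 (limma on log2(FPKM + 1)), 43 (unfiltered) and 90 (DMM vehicle 63 and 64), and 12 to 57 with 1 mouse left out.

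Among the results reported, the directions that turned were of differences that had not passed. With DMM vehicle 32 to 34 alone, DMM against naive with vehicle was -0.46 for Saa1, -0.43 for Hp, -0.74 for Lrg1, -0.56 for Steap4 and -0.39 for Cp, and the interaction was 1.16 for Hp, 0.84 for Steap4 and 0.54 for Cp. With DMM vehicle 63 and 64 alone, the interaction of Lrg1 was -0.59, and AP20187 against vehicle in DMM mice was 0.34 for Il6st, 0.44 for Stat3, 0.0604 for Steap2 and -0.24 for Steap3. By limma on log2(FPKM + 1), with or without the filter, and on log2(FPKM + 0.1), the interaction was -0.0742 and -0.0432 for Saa2 and 0.54 and 0.54 for Hp, and Steap3 in DMM mice was -0.0859 and -0.115. Il6st in naive mice was 0.0174 with only the compared groups fitted, 0.0856 with the replicate block and 0.0729 without it. With 1 mouse left out, ranges that crossed 0 were -0.47 to 1.88 for Saa1, -0.25 to 1.00 for Lrg1 and -0.0349 to 0.56 for Cp in DMM against naive with vehicle, and -0.0195 to 0.35 for Cp with AP20187. In the interaction they were -0.57 to 0.69 for Hp, -0.19 to 1.06 for Lrg1, -0.62 to 0.19 for Steap4 and -0.41 to 0.19 for Cp. For AP20187 against vehicle they were -0.21 to 0.11 for Stat3 and -0.19 to 0.21 for Steap3 in DMM mice and -0.0937 to 0.16 for Il6st in naive mice. Depth limits Saa3 and Saa2 with vehicle, where most libraries held 0 to 26 counts.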
